A study of Mus musculus with 18 samples.

Results

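MERVK26-int, MYSERV-int, SRV_MM-int, MMERVK9E_I-int, MMERVK9C_I-int, ERVB5_1-I_MM and ERVB5_1-LTR_MM are 7 of the 1365 repeat subfamilies measured in mouse cells with and without an inhibitor of the chaperone HSP90. They were chosen by repeat name, with no threshold on any value, but with the fold changes of these tables already known, so their values are a description and none is offered as independent evidence. All 7 rows were found in each of the 3 tables, all 7 carry the class LTR/ERVK, and all 7 carry an adjusted p in each table, so none was lost to a filter on low counts. Each row stands for a repeat over its copies in the genome and not for a single locus; how reads that fit several copies were counted is not stated.

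RNA came from 18 libraries in 6 groups of 3. Untreated embryonic stem cells (ESCs, kept in 2i medium) and ESCs given 100 nM NVP-AUY922, the HSP90 inhibitor, formed the first pair of groups, bone-marrow-derived macrophages without and with 500 nM of it the second, and neuronal progenitor cells (NPCs, grown with EGF and FGF) without and with 50 nM the third. Exposure was 24 h in each treated group. ESCs and NPCs carried the 129S1/CASTEiJ strain background and macrophages BALBC/C57BL6, so cell type moves together with dose and, for macrophages, with strain, and these cannot be told apart. The labels do not call the replicates separate cultures or animals. Each p-value below is the authors' DESeq2 value from 3 and 3 libraries, whose scatter may be technical. The measured rows are repeats, so the labelled cell types were not checked against marker genes.

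ERVK elements are endogenous retroviruses of class II, descended from germline infections by betaretrovirus-like viruses. A full-length copy has an internal part, which in an intact virus codes for the structural proteins, protease, polymerase and sometimes the envelope, between 2 long terminal repeats (LTRs), which hold the promoter and the polyadenylation signal. Many copies survive as lone LTRs, so the internal part and the LTR of 1 element can be transcribed from different places in the genome. In mouse cells, and in ESCs above all, ERVK copies are held silent by KRAB zinc finger proteins that recruit TRIM28 and the histone H3 lysine 9 methyltransferase SETDB1. ERVB names stand for betaretrovirus-like elements, and MYSERV elements are relatives of the mys retroelements of deer mice.

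The 3 tables state no numerator for the contrast. A value is therefore given only by its sign in that contrast, above 0 (the positive side) or below it (the negative side). Neither side is assigned to treated cells, and the same side may not stand for the same group in each table. A log2 fold change is followed by ± its standard error (SE), and "past the test" means an adjusted p under 0.05, both as the authors deposited them. Fold differences and their 95% intervals were computed here from those values. The base mean is a row's mean normalised read count over the 6 libraries of a cell type.

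In ESCs 6 of the 7 rows were past the test in the authors' deposited table, 4 of them negative and 2 positive. Of all tested ESC rows there 22.2% were past it, 12.0% on the negative and 10.2% on the positive side. For macrophages the authors' deposited table had 5 of the 7 past the test, 3 negative and 2 positive, against 25.8% of all tested rows, 12.5% negative and 13.3% positive. For NPCs 6 of the 7 were past it in the authors' deposited table, 4 negative and 2 positive, against 11.8% of all tested rows, 6.81% negative and 4.96% positive. Nothing is read from these shares, since the rows were chosen with the values known. Of the 21 values over the cell types, 17 were past the test, 11 negative and 6 positive. The 7 rows had a median log2 fold change of -0.42 in the ESC table (0.0019 over all tested rows), -0.02 in the macrophage table (-0.0129) and -0.54 in the NPC table (0.0009). The rows did not share a direction: SRV_MM-int and MMERVK9E_I-int stayed on the negative side in all 3 tables, whereas MERVK26-int and ERVB5_1-I_MM each lay on both sides and were past the test every time. In such bulk RNA a change in the make-up of the cells and a change in RNA per cell cannot be told apart.

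**Figure D1:**
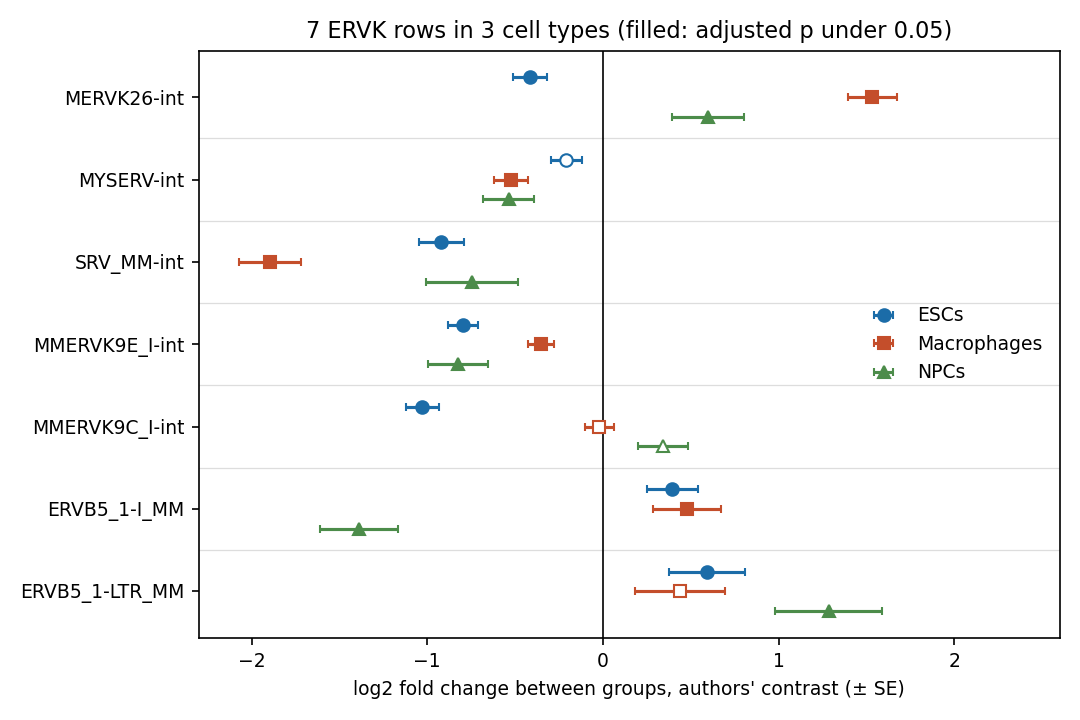
Log2 fold change of each of the 7 ERVK rows (x axis, authors' contrast; bars are ± 1 SE) in ESCs (circles), macrophages (squares) and NPCs (triangles); filled symbols have an adjusted p under 0.05. SRV_MM-int and MMERVK9E_I-int lie left of 0 in every cell type, MERVK26-int spans from -0.42 in ESCs to 1.53 in macrophages, and the NPC values of ERVB5_1-I_MM and ERVB5_1-LTR_MM lie at opposite ends.

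MERVK26-int, an internal part, had the largest positive value among the 7 rows and also changed side between tables. In macrophages it lay at 1.53 ± 0.14 in the authors' deposited table, at a base mean of 783 and an adjusted p of 1.81e-26. This is a 2.89-fold difference between the groups (95% interval 2.40 to 3.50), the 8th highest of 1255 tested rows and the 3rd highest of 277 tested ERVK rows. The NPC value was 0.60 ± 0.20 in the authors' deposited table (base mean 288, adjusted p 0.034), a 1.51-fold difference with an interval of 1.15 to 1.99. The ESC value lay on the other side, at -0.42 ± 0.10 in the authors' deposited table (base mean 665, adjusted p 1.58e-04), or 1.33-fold with an interval of 1.17 to 1.52. Thus the macrophage value was 1.95 ± 0.17 away from the ESC value and 0.94 ± 0.25 away from the NPC value on the log2 scale; no test was made of these differences. With the sign of the ESC or the NPC table turned, the distances from the macrophage value would be 1.12 and 2.13. Of the 33 rows past the test in all 3 tables (2.94% of 1121 tested in all 3), MERVK26-int alone was negative in ESCs and positive in both macrophages and NPCs. This rests on the threshold, since its NPC call ends at an adjusted p of 0.01. ERVB4_3-LTR_MM had the same signs, at -0.16, 1.69 and 0.24, but did not pass in ESCs or NPCs. The SE of MERVK26-int in macrophages was 1.67 times the median SE of the 100 tested rows nearest to it in base mean.

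SRV_MM-int, an internal part, lay furthest to the negative side in macrophages. Its value there was -1.89 ± 0.18 in the authors' deposited table, with an adjusted p of 3.25e-25 at a base mean of 105. The groups differed 3.72-fold (95% interval 2.93 to 4.72), and the row ranked 7th from the negative end of 1255 tested rows. ESCs gave -0.92 ± 0.13 in the authors' deposited table (base mean 415, adjusted p 2.95e-11), a 1.89-fold difference with an interval of 1.59 to 2.26. NPCs gave -0.74 ± 0.26 in the authors' deposited table at a base mean of 865, with an adjusted p of 0.0408, the largest of its 3. The SE in NPCs was 1.44 times the median of the 100 rows nearest in base mean. The macrophage value lay 0.97 ± 0.22 from that of ESCs and 1.15 ± 0.32 from that of NPCs, while ESCs and NPCs were 0.18 ± 0.29 apart, less than the SE of that difference. These values take the tables as oriented alike; with 1 sign turned they would be 2.81, 2.64 and 1.67, in that order. SRV_MM-int was 1 of 15 rows that were negative and past the test in all 3 tables (1.34% of 1121 rows).

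MYSERV-int, an internal part of MysERV elements, showed small values on the negative side throughout. It lay at -0.52 ± 0.10 in macrophages in the authors' deposited table (base mean 372, adjusted p 9.71e-07) and at -0.54 ± 0.15 in NPCs (base mean 860.3, adjusted p 0.00391). These are differences of 1.44-fold (1.26 to 1.64) and 1.45-fold (1.19 to 1.77), 0.01 ± 0.17 apart on the log2 scale, or 1.06 if the sign of 1 of the tables were turned. The ESC value of -0.21 ± 0.09 in the authors' deposited table (base mean 887) did not pass, with an adjusted p of 0.0743; its interval ran from 1.02-fold to 1.30-fold. In ESCs the smallest absolute log2 fold change past the test among rows within a factor of 2 of its base mean was 0.25, so no row of like base mean passed with a value this small. In macrophages and NPCs both other MYSERV rows, also internal parts, lay nearer to 0. The authors' deposited table put MYSERV16_I-int at -0.20 ± 0.07 in ESCs, 0.05 ± 0.10 in macrophages and -0.12 ± 0.21 in NPCs. Of these the ESC value passed in the authors' deposited table, having an adjusted p of 0.0318. MYSERV6-int was at 0.07 ± 0.07, 0.12 ± 0.08 and -0.21 ± 0.14, in the same order, in the authors' deposited table, and passed in none of the 3.

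MMERVK9C_I-int and MMERVK9E_I-int, internal parts whose names differ by a letter, both lay on the negative side in ESCs and lay furthest apart in NPCs. In ESCs MMERVK9C_I-int was at -1.03 ± 0.09 in the authors' deposited table, with a base mean of 9436 and an adjusted p of 3.41e-26. MMERVK9E_I-int was at -0.80 ± 0.08 there in the authors' deposited table, with a base mean of 5697 and an adjusted p of 1.79e-19. The groups differed 2.04-fold (95% interval 1.80 to 2.32) for MMERVK9C_I-int, the 17th of 1132 tested rows from the negative end, and 1.74-fold (1.55 to 1.95) for MMERVK9E_I-int, the 35th. In macrophages MMERVK9E_I-int was again negative, at -0.35 ± 0.07 in the authors' deposited table (base mean 1068, adjusted p 1.06e-05), a 1.28-fold difference with an interval of 1.16 to 1.41. The macrophage value of MMERVK9C_I-int was -0.02 ± 0.08 in the authors' deposited table (base mean 632, adjusted p 0.900); taken towards the negative side, its interval ran from 0.907-fold to 1.14-fold and so included no difference.

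In NPCs the MMERVK9 rows lay on opposite sides of 0. MMERVK9E_I-int was at -0.83 ± 0.17 in the authors' deposited table (base mean 1472, adjusted p 4.17e-05), a 1.77-fold difference with an interval of 1.41 to 2.24. MMERVK9C_I-int was at 0.34 ± 0.14 in the authors' deposited table (base mean 557), which did not pass, with an adjusted p of 0.103. Their log2 fold changes were thus 0.23 apart in ESCs, 0.33 in macrophages and 1.17 in NPCs. No SE is given for these gaps, since both rows were measured in the same libraries and can share reads. Between cell types, MMERVK9E_I-int differed by 0.03 ± 0.19 from ESCs to NPCs and by 0.44 ± 0.11 from ESCs to macrophages, or by 1.62 and 1.15 with 1 sign turned. MMERVK9C_I-int in ESCs lay 1.01 ± 0.12 from its macrophage value and 1.37 ± 0.17 from its NPC value, or 1.05 and 0.69 with the sign of either table of the pair turned.

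ERVB5_1 was represented by its internal part, ERVB5_1-I_MM, and its LTR, ERVB5_1-LTR_MM, and in NPCs these stood at opposite ends of the table. The internal part was at -1.39 ± 0.22 in NPCs in the authors' deposited table (base mean 132, adjusted p 1.93e-08), a 2.62-fold difference (95% interval 1.94 to 3.53) and the 15th of 1249 tested rows from the negative end. The LTR was at 1.28 ± 0.31 in the authors' deposited table (base mean 46.3, adjusted p 6.18e-04), a 2.44-fold difference (1.61 to 3.69) and the 18th from the positive end. The gap of 2.67 on the log2 scale lies within 1 table, so it does not depend on which group was the numerator.

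In ESCs both ERVB5_1 rows were on the positive side. The internal part lay at 0.39 ± 0.15 in the authors' deposited table (base mean 246, adjusted p 0.0334) and the LTR at 0.59 ± 0.22 (base mean 76.0, adjusted p 0.0318), 0.20 apart. In macrophages the internal part lay at 0.48 ± 0.19 in the authors' deposited table at a base mean of 139.9, just past the test with an adjusted p of 0.0491. That call ends, with an adjusted p of 0.0511, when every macrophage row with a p is included in the adjustment. The LTR lay at 0.44 ± 0.26 in the authors' deposited table and did not pass (adjusted p 0.224). Its base mean there was 20.0, and the smallest absolute log2 fold change past the test among rows within a factor of 2 of that was 0.61. ERVB5_1-I_MM in NPCs differed by 1.78 ± 0.26 from its ESC value and by 1.87 ± 0.29 from its macrophage value, or by 0.99 and 0.91 with 1 sign turned. For ERVB5_2-LTR_MM, the LTR of a related name, the authors' deposited table gave 0.45 ± 0.16 in ESCs (adjusted p 0.0246), -0.0047 ± 0.15 in macrophages and 0.11 ± 0.28 in NPCs.

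The same comparison was made for all 6 ERVB names that have both an internal and an LTR row, a set picked after the ERVB5_1 values were seen. Of the 18 pairs of values over the 3 tables, 7 lay on opposite sides, 5 of them in NPCs. In only 1 of these 5 NPC pairs were both rows past the test. The median SE at base means from 50 upwards was 0.21 in NPCs, 0.11 in ESCs and 0.11 in macrophages. These medians are over all such rows, and the SEs of the ERVB rows were not all larger in NPCs than in macrophages. Whether the SE bears on the number of opposite pairs was not tested. In 6 pairs both rows were past the test in the authors' deposited table, and in 2 of these 6 they lay on opposite sides. The first was ERVB5_1 in NPCs. The second was ERVB4_1B in ESCs, with the internal part at -0.26 ± 0.09 and the LTR at 0.40 ± 0.12 in the authors' deposited table. A gap as wide as that of ERVB5_1 was seen for ERVB4_1 in NPCs, 2.71, where the internal part lay at 2.05 ± 0.21 and the LTR, which did not pass, at -0.66 ± 0.34 in the authors' deposited table. Internal part and LTR were thus separated by more than 2 on the log2 scale for 2 of the 6 names in NPCs and for none in ESCs or macrophages. Whether the split differs between cell types was not tested.

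**Figure D2:**
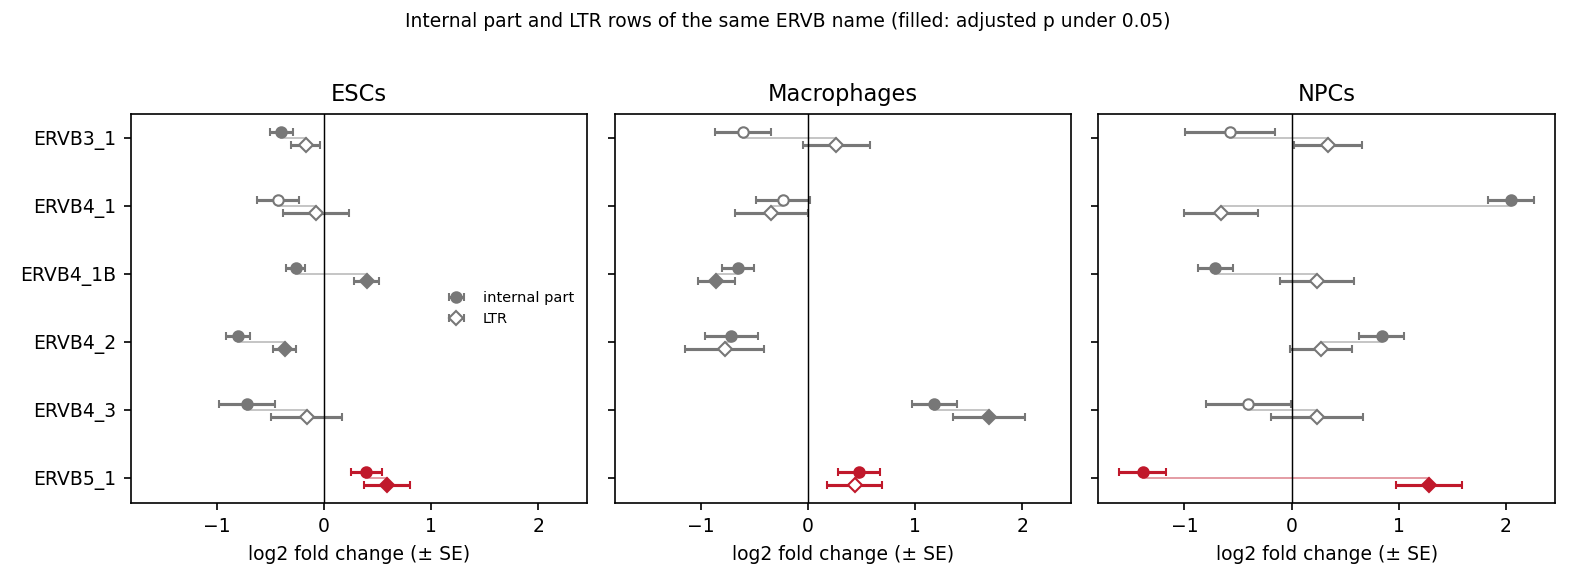
Log2 fold change (x axis, ± 1 SE) of the internal part (circles) and the LTR (diamonds) of the 6 ERVB names that have both rows, 1 panel per cell type, with ERVB5_1 in red; filled symbols have an adjusted p under 0.05. In NPCs the symbols of ERVB5_1 lie 2.67 apart on opposite sides of 0, whereas in ESCs and macrophages they lie 0.20 and 0.04 apart on the positive side.

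LTR rows that share a number with an internal part among the 7 were also read side by side. The sources used here do not state whether an LTR row flanks the internal part of like name. For RLTR26_Mus, beside MERVK26-int, the authors' deposited table gave 0.12 ± 0.10 in ESCs, -0.22 ± 0.10 in macrophages and 0.64 ± 0.16 in NPCs. The NPC value, near that of MERVK26-int, was past the test (adjusted p 0.00196 in the authors' deposited table). It alone of the 5 RLTR26 rows passed in NPCs, where they lay between 0.10 and 0.64. Of the 5 in ESCs only RLTR26 passed, at 0.45 ± 0.17 in the authors' deposited table (adjusted p 0.0434), on the other side from MERVK26-int. In macrophages, where MERVK26-int had its largest value, all 5 RLTR26 rows lay between -0.54 and -0.11 and none passed. RLTR9E, beside MMERVK9E_I-int, was at -0.72 ± 0.09 in ESCs in the authors' deposited table (base mean 8806, adjusted p 4.25e-13), close to the internal part. In macrophages RLTR9E was at 0.31 ± 0.12 in the authors' deposited table (adjusted p 0.0344), on the other side from MMERVK9E_I-int, and in NPCs at -0.18 ± 0.22, not past the test. RLTR9C, beside MMERVK9C_I-int, passed in no table; the authors' deposited table put it at -0.10 ± 0.17 in ESCs, -0.41 ± 0.19 in macrophages and -0.24 ± 0.21 in NPCs.

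Taking all 21 rows with related names (starting MYSERV, RLTR26, RLTR9 or ERVB5), 20 were tested in each table. In ESCs 3 were past the test on the positive and 6 on the negative side, with a median of -0.11 beside 0.0019 over all rows. The 3 with the smallest adjusted p were RLTR9D at -0.75 ± 0.10, RLTR9E and RLTR9A3A at -1.02 ± 0.18 in the authors' deposited table. In macrophages 1 was positive and 2 negative, with a median of -0.19 beside -0.0129; the negative rows were RLTR9A3 at -1.47 ± 0.10 and RLTR9D at -0.54 ± 0.10 in the authors' deposited table. In NPCs RLTR26_Mus alone passed, and the median was 0.11 beside 0.0009.

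**Figure D3:**
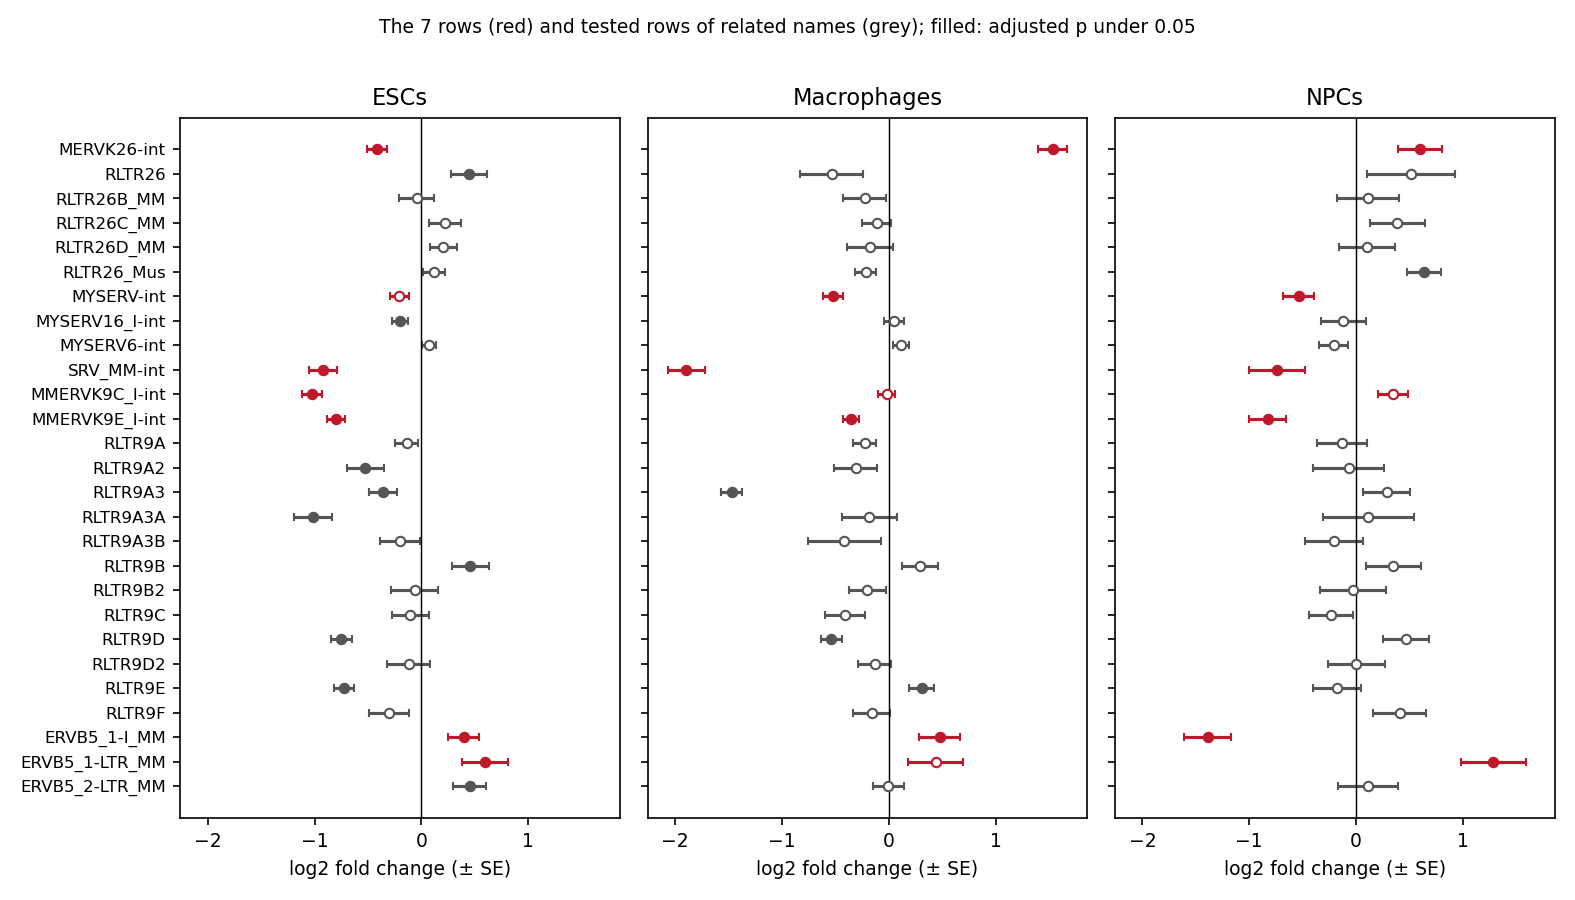
Log2 fold change (x axis, ± 1 SE) of the 7 ERVK rows (red) and of the 20 tested rows with related names (grey), 1 panel per cell type; filled symbols have an adjusted p under 0.05. In macrophages MERVK26-int lies at 1.53 while all 5 RLTR26 rows lie left of 0, and in NPCs RLTR26_Mus at 0.64 is the grey row with a filled symbol.

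Other ERVK internal parts are the rows most like 6 of the 7 in kind. In ESCs 13 of these 40 rows were past the test on the positive and 16 on the negative side, with a median of -0.11. In macrophages 9 were positive and 11 negative, with a median of -0.13, and in NPCs 10 were positive and 3 negative, with a median of 0.25. On either side 72.5% of the 40 rows were past the test in ESCs, 50% in macrophages and 32.5% in NPCs. Over all tested rows the shares were 22.2%, 25.8% and 11.8%, so frequent calls were not particular to the 7 rows. Of the 6 internal parts described here, MYSERV-int, SRV_MM-int, MMERVK9E_I-int and ERVB5_1-I_MM were negative and past the test in NPCs, where 6.81% of all tested rows were. MERVK26-int was positive and past it, where 4.96% of all tested rows were, and MMERVK9C_I-int, at 0.34, did not pass. Of the other ERVB rows, which overlap this set, 2 were positive and 12 negative of 18 tested in ESCs, 2 and 4 of 19 in macrophages, and 3 and 1 of 19 in NPCs. Over all ERVK rows other than the 7, which include both of these sets, the counts were 56 and 54 of 265, 47 and 50 of 270, and 26 and 19 of 269.

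In ESCs the order of the 7 rows ran from MMERVK9C_I-int through SRV_MM-int and MMERVK9E_I-int, neighbours whose ranges of 1 SE overlapped, to MERVK26-int, then MYSERV-int, and last the ERVB5_1 rows, which overlapped each other. In macrophages SRV_MM-int was lowest by a gap of 1.37 and MERVK26-int highest by a gap of 1.05, and among the rows between them the ERVB5_1 rows overlapped. In NPCs ERVB5_1-I_MM was lowest. MMERVK9E_I-int, SRV_MM-int and MYSERV-int followed it with overlapping ranges, then MMERVK9C_I-int and MERVK26-int, which also overlapped, and ERVB5_1-LTR_MM was highest. An absolute log2 fold change of at least 1 together with the adjusted p was met by MMERVK9C_I-int in ESCs (background 3.18%), by MERVK26-int and SRV_MM-int in macrophages (4.22%) and by both ERVB5_1 rows in NPCs (4.88%). In ESCs SRV_MM-int, at -0.92, missed that size by less than its SE. MMERVK9C_I-int in ESCs, at -1.03 ± 0.09, and ERVB5_1-LTR_MM in NPCs, at 1.28 ± 0.31, each met it by less than its SE.

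**Figure D4:**
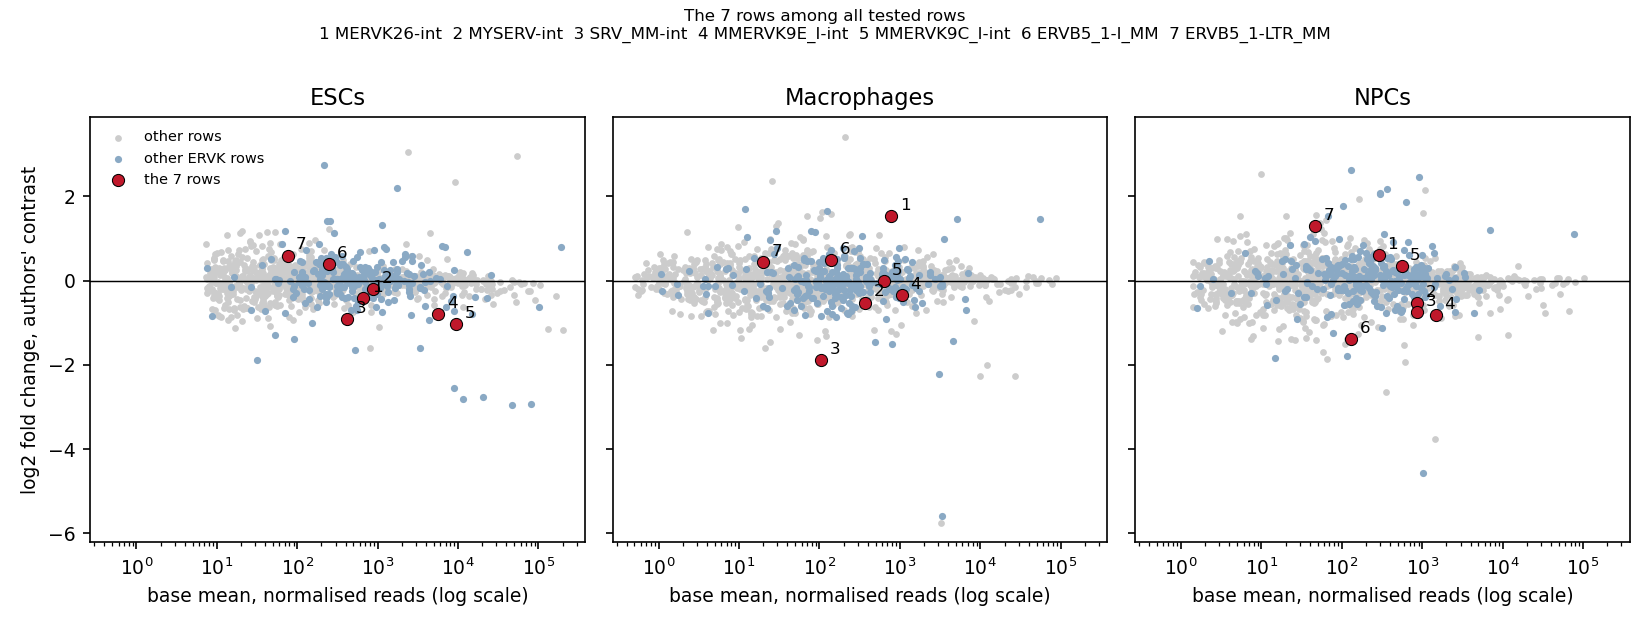
Log2 fold change (y axis, authors' contrast) against base mean (x axis, log scale) of every tested row in ESCs, macrophages and NPCs, with the 7 ERVK rows in red and numbered, other ERVK rows in blue and other rows in grey. The MMERVK9 rows (4 and 5) have the highest base means of the 7 in ESCs, in reads and not per length, and MERVK26-int (1) and SRV_MM-int (3) lie at the edges of the macrophage cloud at 1.53 and -1.89.

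For each of the 7 rows the 2 nearest of 1114 other rows tested in all 3 tables were found by the Euclidean distance over the 3 log2 fold changes, a measure that is the same if the sign of a table is turned. It rests on 3 values per row and says nothing of shared control. SRV_MM-int was nearest to the ERVK rows RLTR11A, at a distance of 0.45, and RLTR19-int, at 0.54, against a median distance of 2.27 to all rows. Both were negative in all 3 tables, which follows from such short distances to SRV_MM-int, and both were past the test in each. RLTR11A lay at -0.61, -2.22 and -0.75 and RLTR19-int at -0.64, -1.44 and -0.77 (ESCs, macrophages, NPCs) in the authors' deposited table. MMERVK9E_I-int was nearest to RLTR13B1, an ERVK LTR at 0.35, and UCON70 at 0.36 (median 1.27). ERVB5_1-I_MM was nearest to RLTR31B_Mm, another ERVK LTR, at 0.25, followed by UCON105 at 0.53 (median 1.60). MERVK26-int had ERVB4_3-LTR_MM at 0.47 and MER70A at 0.50 (median 1.77). MMERVK9C_I-int had MADE2 at 0.21 and RLTR50A at 0.24 (median 1.20), and ERVB5_1-LTR_MM had UCON5 at 0.33 and RLTR44E at 0.39 (median 1.55). MYSERV-int, whose median distance was the smallest of the 7, had X9_LINE at 0.06 and MARE8 at 0.13 (median 0.90). For 4 of the 7 rows the nearest row had a base mean under 50 in some table, and another row took its place when such rows were left out.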

How the data were processed

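Poly(A) RNA was sequenced from paired-end, stranded libraries, per the labels' protocols. The submitters' processing notes name mm10 and, with neither role nor order, the tools DESeq2, featureCounts, TopHat2 2.0.13 and Bowtie2 besides Trim Galore and deepTools. Each of the 3 tables is the authors' DESeq2 result, per the file headers. The deposited base mean is a signal, read counts over size factors averaged across libraries. The deposited log2 fold change and SE, Wald score, p-value and its adjusted form are the authors' own. The ESC table had an adjusted p-value for 1132 rows, the macrophage table for 1255 and the NPC table for 1249; rows without one count as untested. The assignment of reads that fit several repeats and the use of strand are not given in the sources used here, so related rows, and an LTR and its internal part, can share reads. Fold changes behave as shrunken towards 0, which no source used here states: the median SE fell from 0.34 (ESCs), 0.35 (macrophages) and 0.42 (NPCs) at base means of 5 to 15 to 0.15, 0.20 and 0.22 at base means up to 1, where unshrunken errors would grow. Values of rows with few reads, such as ERVB5_1-LTR_MM, may thus be understated. Depth per library and values per library are not given in the sources used here.

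Computed here, with Python 3.11.15, pandas 2.3.3, numpy 2.4.6 and scipy 1.17.1, were fold differences, 95% normal intervals, differences between tables with the root of the summed squared SE, ranks, counts and distances. Benjamini-Hochberg adjustment was tested on simulated data. Rows, lists and the naming rule were chosen with earlier results of these data known. Named were all 7 rows, up to 3 related names per table with the smallest adjusted p, and the 2 nearest rows to each; ERVB pairs and LTRs of like number were added after values were seen. Alternatives were an adjusted p of 0.01, adjustment over every row with a p, a base mean of at least 50, centring on the median and an absolute log2 fold change of at least 1. No sequence of these repeats was used here.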

Additional observations from a re-analysis of the deposited data

How the results depend on the processing

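Requiring an absolute log2 fold change of at least 1 in addition left 1 of 6 rows past the test in ESCs, 2 of 5 in macrophages and 2 of 6 in NPCs. Of all tested rows 3.18%, 4.22% and 4.88% met both, in the same order. An adjusted p of 0.01 left 4 of the 7 rows in each cell type, and 3 of the 9 related names in ESCs, all 3 negative. Both ERVB5_1 rows in ESCs, ERVB5_1-I_MM in macrophages, and MERVK26-int and SRV_MM-int in NPCs are the rows it removes. Adjustment over every row with a p kept the call of 20 of the 21 values and ended that of ERVB5_1-I_MM in macrophages. Centring on the median kept all 21. A base mean of at least 50 removed ERVB5_1-LTR_MM from the NPC rows past the test, since its base mean is lower, and left the counts in ESCs and macrophages at 6 and 5. Of all rows with such a base mean, 26.9% passed in ESCs, 37.7% in macrophages and 16.2% in NPCs. With the sign of 1 table turned, 19 of the 21 differences between cell types changed by at least their SE, so these depend on tables oriented alike. No paired analysis was possible because the tables hold no values per library, and leaving out single replicates was not run for the same reason.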
